A study of Mus musculus with 6 samples.

Results

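Paraquat (PQ), an oxidant, was compared with N-acetylcysteine (NAC), an antioxidant, in cultured mouse neural stem and progenitor cells (NSPCs). The comparison took in every library whose label names either agent: 2 PQ and 2 NAC libraries, 4 of the 6 in the series. The remaining 2 libraries, from mock-treated controls, set the level from which each agent's change was read. Of 17254 genes listed in any library, the 11717 with a mean FPKM (fragments scaled to transcript length and library depth) of at least 1 over the 6 libraries were tested. The other 5537 were listed at lower levels and were not tested.

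The study profiled RNA from NSPCs kept for 48 h with 5 µM PQ, with 5 mM NAC, or with neither. By its account PQ-treated cells made fewer neurons when differentiated, and the RNA was read to find a pathway that could account for this. By the study's methods the cells were an immortalized culture of neonatal origin, grown with EGF and bFGF and lacking the Ink/Arf locus, in the controls too. The genotype (spelled Ink/Ark knockout) and the strain, C57BL/6, are given on the labels of control replicate 1 and PQ replicate 1 and are missing from the other 4. Doses of NAC come from the methods of the study, as does that of PQ for replicate 2. The labels do not say whether replicates were separate cultures, so the p-values below measure the spread between these libraries and nothing beyond it.

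Paraquat accepts an electron from cellular reductases and passes it to oxygen, which makes superoxide in a repeating cycle. N-acetylcysteine is a thiol that enters cells, donates cysteine for glutathione synthesis and reduces disulfides. Neural progenitors keep a tightly held redox balance, and shifts in it are known to alter their division and the fates they adopt.

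Labels of the libraries disagree on how they were made, and this bears on the comparison. Control replicate 1 and PQ replicate 1 are described as Illumina libraries aligned to mm9 with TopHat2, while the other 4, both NAC libraries among them, are described as BGISEQ-500 libraries aligned to mm10 with HISAT2 and RSEM. The methods of the study describe only stranded Illumina libraries aligned with TopHat to mm9. All 6 files nevertheless hold the same columns, and for each of the 17254 genes they list the same transcripts. Within the BGISEQ-500 label stand 1 PQ, 1 control and 2 NAC libraries, and values from those 4 alone are given beside the pooled ones for some genes and lists. The Illumina label covers no NAC library and gives no value of its own. Total expected counts were 9849392 and 10040827 in the controls, 10388731 and 9680436 in PQ, and 10698241 and 9907726 in NAC, so depth was alike across groups.

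Marker genes were read as counts scaled to library size by TMM (CPM), the unit of every expression value below unless FPKM is named. Of 13 neural stem cell markers, 12 exceeded 3 counts in some library, and by FPKM the intermediate filament gene Vim was the most abundant of them. Their summed level was 6587 and 6686 CPM in the controls, 6981 and 7246 in PQ, and 4970 and 4898 in NAC. Nearly all of the lower sum in NAC was Vim, at 2463 and 2486 CPM there against 4053 and 4292 in controls, and the median marker of this set differed from control by 0.07 in NAC. Hes5 and Prom1, also on that list, were at or near 0 in all 6 libraries, with at most 4 counts. Oligodendrocyte lineage markers summed to 1589 and 1802 CPM in controls, 1785 and 1583 in PQ, and 1911 and 2136 in NAC, nearly all of it Olig1 and Olig2, which progenitors in EGF and bFGF also express. The mature marker Mog was not listed and Sox10 reached at most 1 count. Astrocyte markers summed to 53.3 and 57.3 CPM in controls, 66.4 and 68.4 in PQ, and 94.4 and 96.5 in NAC, with Slc1a2 the most abundant by FPKM and Gjb6 at or near 0. A longer astrocyte list, which adds genes such as Gja1 and Cd44, did not rise in NAC by its sum. It summed to 1113 and 1071 CPM in controls, 1335 and 1379.5 in PQ, and 1081 and 1054.5 in NAC. Its median member nevertheless differed from control by 0.65 in NAC. Of its 11 tested genes, 5 were called above control in NAC and 2 below. The short sets of neuron, microglia, endothelial, fibroblast and ependymal markers summed to at most 31.3 CPM in any library, and Rbfox3, Cldn5, Aif1, Tmem119, Lum and Tmem212 were at 0 to 2 counts in each. Longer lists summed to more, up to 838 CPM for neuronal lineage (559 and 567 in NAC), 127 for endothelial and mural and 116 for fibroblast genes. For any marker, fewer cells of a type and less RNA per cell cannot be told apart in bulk RNA, and the part of such shifts in the results below was not tested.

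Transcripts of the deleted locus were still counted. Cdkn2a, which encodes the INK4A and ARF proteins, measured 14.2 and 16.3 CPM in the controls, 11.4 and 13.5 in PQ, and 12 and 13.0 in NAC. Levels were low throughout, with both controls above the treated libraries, and the gene tables do not show which exons the counts fall on. Y-linked transcripts were present in every library, with Ddx3y between 134 and 162 CPM, and Xist stayed under 0.8 CPM.

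Across all tested genes the 2 agents left distinct profiles. Pearson correlations of log2(FPKM + 1), taken across genes, were 0.990 for the PQ pair and 0.991 for the NAC pair, and 0.965 to 0.968 when a PQ library was set against a NAC library. In a principal component analysis the first axis, 47.7% of the variance, placed PQ at 23.6 and 24.3, controls at 3.39 and 5.37, and NAC at -30.1 and -26.6. Control libraries thus lay between the treatments on that axis. The second axis, 27.7%, set both treatments (6.48 to 17.5) apart from the controls (-24.2 and -21.5).

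By edgeR, at an adjusted p under 0.05, 3708 of 11717 genes (31.6%) differed between PQ and NAC. Of these, 1874 genes (16.0%) were higher in PQ and 1834 (15.7%) were lower. Against the controls, which both contrasts share, PQ raised 1143 genes (9.76%) and lowered 1107 (9.45%), and NAC raised 1056 (9.01%) and lowered 1130 (9.64%). Most differences between PQ and NAC were modest: the median size was 0.55 on the log2 scale, 1543 called genes were under 0.5, and 578 reached 2-fold, 379 of them higher in PQ. Among BGISEQ-500 libraries alone, 3098 genes were called, 1618 higher and 1480 lower in PQ. Of the 3708, 2839 were among them, all in the same direction. Without PQ replicate 1 the count was 2343 (1229 higher and 1114 lower), and without NAC replicate 1 it was 2383 (1225 and 1158). Calls against control numbered 866 for PQ without PQ replicate 1, and for NAC 1259 and 1427 without NAC replicate 1 or 2, against 2250 and 2186 in full. In fits that leave a group with 1 library, that library is assumed to vary as the others do. For the BGISEQ-500 libraries the spread comes from the 2 NAC libraries alone, so the number of calls depends on that pair.

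The control level sorted the 3708 genes into classes. In 239 the agents moved expression in opposite directions from control, both changes being called: 161 rose in PQ and fell in NAC, and 78 fell in PQ and rose in NAC. Another 1144 were called against control for PQ alone (525 higher and 619 lower than in NAC), and 1085 for NAC alone (586 and 499). In 114 both agents moved expression the same way but to different extents, and 1126 could not be placed because neither agent was called against control. A further 351 genes were moved the same way by both without a called difference between them, 188 above control and 163 below. In the first opposite class the median change from control was 0.58 in PQ and -0.62 in NAC on the log2 scale, and in its mirror -0.59 and 0.55. In all 239 opposite genes the libraries of each group lay apart from the other groups, with control between PQ and NAC. That order is shared by the whole class, so it adds no support where it is given for a member below. A call for one agent alone does not show that the other had no effect.

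**Figure D1:**
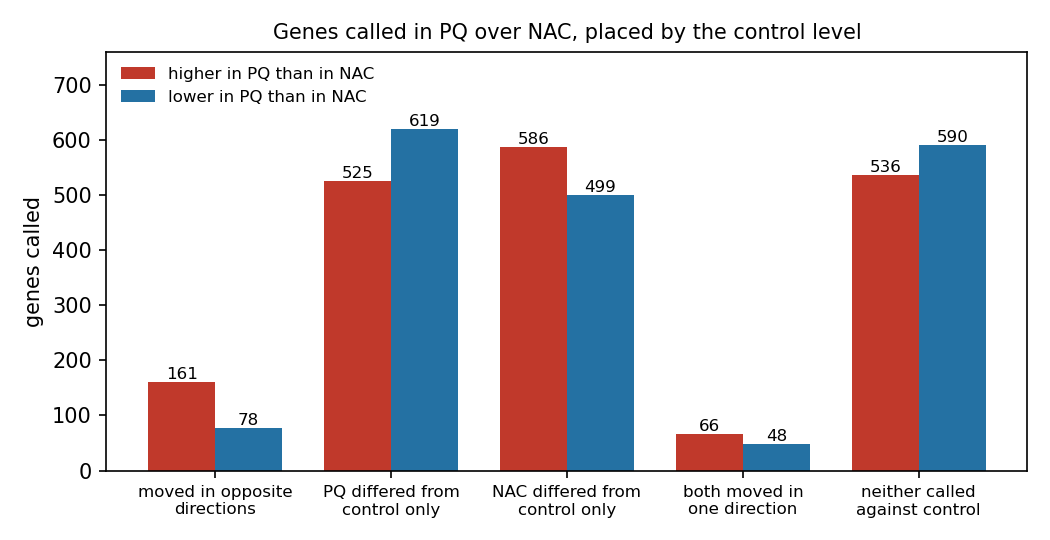
Number of genes called between PQ and NAC in each class set by the control level, with genes higher in PQ in red and genes lower in PQ in blue. The opposite class holds 161 and 78 genes, far fewer than the PQ side (525 and 619) or the NAC side (586 and 499).

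As the bar plot of the classes shows, genes called against control for a single agent outnumbered those called for both in opposite directions. This compares calls and not the agents' effects. Among differences of at least 2-fold between PQ and NAC the opposite classes held 120 and 53 genes, the PQ side 84 and 46, and the NAC side 113 and 79. Class sizes depended on the libraries used. With the BGISEQ-500 libraries alone the opposite classes held 80 and 35 genes, the PQ side 547, the NAC side 1013 and the same-direction class 53. Genes higher in PQ and lower in NAC numbered 87 without PQ replicate 1, 99 without PQ replicate 2, 100 without NAC replicate 1 and 107 without control replicate 1. Their mirror class held 42 genes without PQ replicate 1, 42 without NAC replicate 1 and 47 without PQ replicate 2. The PQ side shrank to 433 without PQ replicate 1, and the NAC side to 608 without NAC replicate 1. Same-direction genes numbered 28 without PQ replicate 1, 56 without NAC replicate 1, 61 without NAC replicate 2 and 65 without PQ replicate 2, and those moved alike by both numbered 166 without PQ replicate 1.

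Targets of p53, the transcription factor that halts division and repairs or removes damaged cells, were mostly higher in PQ than in NAC. Of 29 targets tested, 22 were higher and 2 lower in PQ than in NAC, against 16.0% and 15.7% of all genes, and their median log2 difference was 0.86, against 0.00 over all genes tested. The same median was 0.64 for PQ over control and -0.24 for NAC over control, and 0.77 between PQ and NAC within the BGISEQ-500 label. Cdkn1a, which encodes the cyclin-dependent kinase inhibitor p21, measured 473 and 466 CPM in the controls, 1086 and 1032 in PQ and 223 and 254 in NAC. Both PQ libraries lay above both controls and both NAC libraries below them. The log2 difference between PQ and NAC was 2.15 (SE 0.10, edgeR adjusted p 1.1e-10), made of 1.17 above control in PQ and -0.98 in NAC, and it was 2.12 within the BGISEQ-500 label. Ccng1, the atypical cyclin G1, stood at 322 and 279 CPM in controls, 751 and 757 in PQ and 229 and 195 in NAC. Its groups were again fully ordered, with a log2 difference of 1.83 (edgeR adjusted p 7.3e-10). Trp53inp1, a p53-induced nuclear protein, had 533 and 546 CPM in PQ against 215 and 220.4 in controls and 233 and 191 in NAC. For this gene NAC overlapped the control range, so PQ carried the difference. In all, 7 of the targets were in the opposite class, 10 on the PQ side, 2 on the NAC side and 3 in the same-direction class. Over all 11717 genes tested these classes held 161 (PQ above), 1144, 1085 and 114. Every list below can be set beside the same shares of all genes called, 16.0% higher and 15.7% lower.

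NRF2 is the factor that induces detoxifying and glutathione-using enzymes when thiols in its inhibitor are oxidized. Of 33 NRF2 targets and detoxification genes tested, 23 were higher and 2 lower in PQ than in NAC, with a median log2 difference of 0.65, or 0.52 within the BGISEQ-500 label. That median divided evenly about the controls, at 0.29 in PQ and -0.29 in NAC. Hmox1, the heme-degrading enzyme, measured 61.7 and 66.1 CPM in controls, 143 and 117 in PQ and 43.3 and 50 in NAC. PQ libraries were all above control and NAC libraries all below, with a log2 difference of 1.48 (edgeR adjusted p 3.6e-08), or 1.32 within the BGISEQ-500 label. Srxn1, the sulfiredoxin that repairs overoxidized peroxiredoxins, was at 45.9 and 57.6 CPM in controls, 85 and 87.1 in PQ and 35.6 and 39.6 in NAC. The same order held for Esd, which hydrolyzes S-formylglutathione, at 107 and 104, 162 and 171 and 60.7 and 64.7 CPM. Log2 differences were 1.20 for Srxn1 (edgeR adjusted p 4.2e-07) and 1.41 for Esd (8.3e-09). Of all 11717 genes tested, 161 were in the opposite class with PQ above, 1144 on the PQ side and 1085 on the NAC side. In the NRF2 list 7 genes belonged to the opposite class, 8 to the PQ side and 4 to the NAC side. These classes rest on 18 genes called above control in PQ, which were 13 without control replicate 1 and 6 within the BGISEQ-500 label.

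The promoter of Srxn1 is shown because it carries the core of the antioxidant response element that NRF2 binds. Promoters run from 250 bases before to 50 after the start, from RefSeq on build GRCm38.p6, and matches were sought on both strands. Capitals mark the core TGACNNNGC, here as read on the opposite strand, at chr2:152105274-152105573, plus strand.
Srxn1: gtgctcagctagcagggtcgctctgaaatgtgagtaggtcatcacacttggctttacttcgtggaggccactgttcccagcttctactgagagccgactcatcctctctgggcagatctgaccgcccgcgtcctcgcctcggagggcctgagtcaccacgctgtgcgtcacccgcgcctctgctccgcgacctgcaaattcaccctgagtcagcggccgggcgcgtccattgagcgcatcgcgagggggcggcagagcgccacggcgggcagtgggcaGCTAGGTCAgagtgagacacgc
Of the list's promoters, 16 of 47 (34.0%, from 33 matched genes) hold this core, against 12.4% of all 32851 promoters and 14.2% of those of tested genes. Among the list's genes called between PQ and NAC it was 6 of 26 promoters (23.1%). A match describes the letters and is no evidence of binding.

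Enzymes that act on superoxide and peroxide directly did not move as a group. Of 26 genes tested in the superoxide, peroxide and thioredoxin systems, 6 (23.1%) were higher and 3 (11.5%) lower in PQ. All genes tested gave 16.0% and 15.7%, and the median difference of the list was 0.06. That median was 0.10 without NAC replicate 1 or without PQ replicate 2. Gpx1, a glutathione peroxidase, was the member in the opposite class, at 96.7 and 96.2 CPM in controls, 129.8 and 121 in PQ and 54.9 and 49.7 in NAC. These values did not overlap and gave a log2 difference of 1.26 (edgeR adjusted p 4.5e-08). Txnip, which binds and inhibits thioredoxin, went the other way: 19.2 and 12.9 CPM in controls, 2.09 and 2.29 in PQ and 19.4 and 21.1 in NAC. Both PQ libraries were low and NAC was not called against control, and the log2 difference of -3.20 (SE 0.24, edgeR adjusted p 1.8e-08) was -3.14 within the BGISEQ-500 label. Txnip lies across another counted gene, Gm15441, which showed the same pattern at 2.39 and 2.82, 0.571 and 0.729 and 3.61 and 2.97 CPM, and counts could be shared between them if strand was not kept. Fractional counts occurred in 0 libraries for Txnip and in 5 for Gm15441. Its relative Arrdc4, an arrestin-domain protein, was at 29.8 and 26.1 CPM in controls, 25.5 and 24.2 in PQ and 40.3 and 45.5 in NAC, and thioredoxin itself, Txn1, at 165 and 162, 167 and 173 and 267 and 279. Both were high in NAC alone, with log2 differences of -0.79 and -0.68.

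Metal-binding proteins joined this pattern by different routes. Metallothioneins are cysteine-rich proteins that hold zinc and copper and quench oxidants. Mt3, the form named for brain, measured 57.6 and 62.2 CPM in controls, 112 and 97.5 in PQ and 35.9 and 35.7 in NAC, with PQ above and NAC below control. Mt1 was at 551 and 642 CPM in controls, 624 and 696 in PQ and 312 and 311 in NAC, and Mt2 at 402 and 421, 399.9 and 460.5 and 195 and 228. For these genes NAC stood apart while PQ was not called against control. Log2 differences between PQ and NAC were 1.55 for Mt3, 1.08 for Mt1 and 1.02 for Mt2, with edgeR adjusted p of 9.0e-09, 1.6e-07 and 4.9e-07. Over the 11 metallothionein, zinc and copper genes tested, 5 were higher and 1 lower in PQ, with a median of 0.37.

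Metallothionein promoters are printed to set the gene in the opposite class beside those on the NAC side. Capitals mark the metal response cores TGCACNC or TGCGCNC on either strand. The windows are chr8:94152357-94152656 for Mt3, chr8:94178839-94179138 for Mt1 and chr8:94172368-94172667 for Mt2, all plus strand on GRCm38.p6 (RefSeq).
Mt3: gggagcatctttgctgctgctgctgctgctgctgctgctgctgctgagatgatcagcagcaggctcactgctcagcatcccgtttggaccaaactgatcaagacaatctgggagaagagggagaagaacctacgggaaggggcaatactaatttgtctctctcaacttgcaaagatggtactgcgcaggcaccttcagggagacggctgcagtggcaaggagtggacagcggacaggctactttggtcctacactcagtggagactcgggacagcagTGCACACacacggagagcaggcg
Mt1: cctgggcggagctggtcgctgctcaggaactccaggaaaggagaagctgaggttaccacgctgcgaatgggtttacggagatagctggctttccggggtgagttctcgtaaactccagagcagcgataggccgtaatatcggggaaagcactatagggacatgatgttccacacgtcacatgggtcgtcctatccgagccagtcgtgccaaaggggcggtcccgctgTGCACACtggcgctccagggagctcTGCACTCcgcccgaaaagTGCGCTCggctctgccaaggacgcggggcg
Mt2: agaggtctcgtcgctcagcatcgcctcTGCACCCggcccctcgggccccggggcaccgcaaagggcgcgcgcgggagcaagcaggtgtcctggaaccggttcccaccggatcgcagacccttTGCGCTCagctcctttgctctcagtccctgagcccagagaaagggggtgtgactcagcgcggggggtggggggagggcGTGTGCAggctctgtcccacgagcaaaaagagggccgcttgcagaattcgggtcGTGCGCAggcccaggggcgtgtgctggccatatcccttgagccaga
Mt3 holds 1 core, Mt1 3 and Mt2 4. Of the list's promoters 8 of 13 (61.5%, from 12 matched genes) hold a core, against 36.4% of promoters of tested genes and 25.7% of all promoters. Among called members it was 4 of 7 (57.1%).

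Iron genes were called at about the rate of all genes, and 2 of them lay in the opposite classes. Those classes held 161 (PQ above) and 78 (PQ below) of all 11717 genes tested. Steap3, a reductase that frees iron taken up on transferrin, measured 31.8 and 34.6 CPM in controls, 64.8 and 49 in PQ and 16.3 and 19.2 in NAC. Trf, transferrin itself, ran opposite at 19.3 and 19.7, 12.7 and 14.6 and 34.2 and 34.2 CPM. Both genes were fully ordered by group, with log2 differences of 1.69 and -1.33 (edgeR adjusted p 8.9e-08 and 8.5e-07). Tfrc, the receptor that brings transferrin in, was raised by PQ alone, from 402 and 467 CPM in controls to 668 and 824, with 459 and 443 in NAC. Of 12 iron genes tested, 2 were higher and 2 lower in PQ, and their median was 0.14, or 0.05 without PQ replicate 2.

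**Figure D2:**
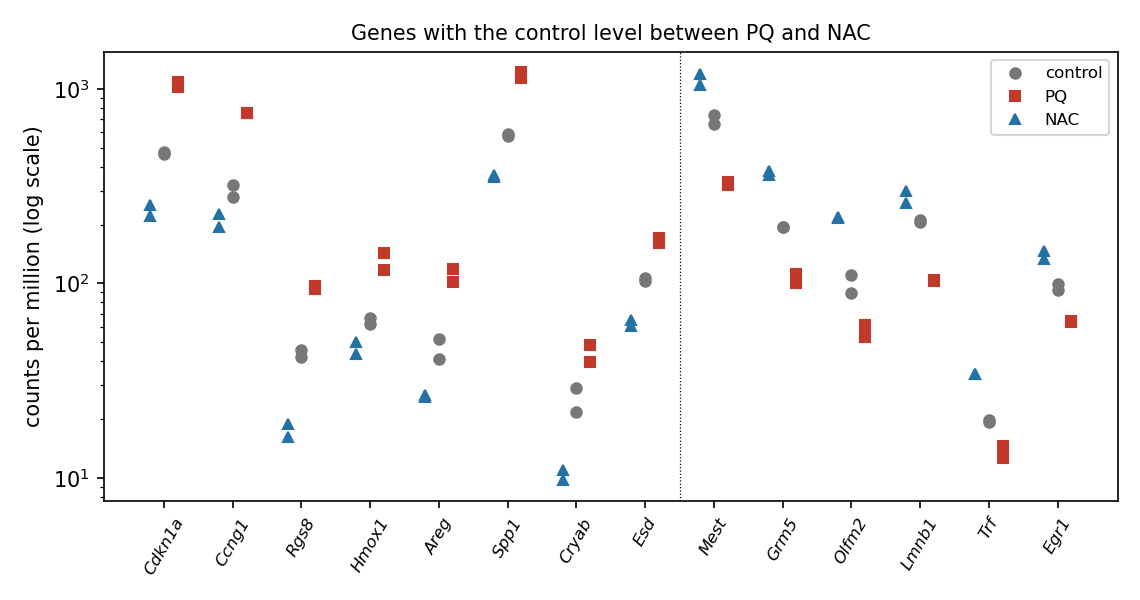
Level of 14 genes of the opposite classes in each library, in CPM on a log scale, with genes higher in PQ left of the dotted line and genes higher in NAC right of it. Each gene has both control libraries between the PQ and the NAC libraries, as for Cdkn1a at 473 and 466 CPM. All 239 genes of these classes share that order.

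The growth factor gene Areg belonged to the opposite class as well, as the plot of levels by library shows. This EGF receptor ligand, amphiregulin, measured 51.9 and 41.1 CPM in controls, 102 and 119 in PQ and 26.7 and 26 in NAC. No library overlapped another group, and the log2 difference was 2.07 (edgeR adjusted p 1.5e-09). A related ligand, Ereg, was raised by PQ alone, at 51.5 and 54.6 CPM against 32.3 and 27.9 in controls and 28.3 and 26.3 in NAC. Immediate early genes, which growth signals switch on first, went both ways. Egr1, a zinc finger factor, was the list's 1 gene in the mirror class, at 99.7 and 92.8 CPM in controls, 64.4 and 63.6 in PQ and 134 and 147 in NAC. Fosl1, a partner of JUN, was opposite with PQ above, at 40.9 and 46.4, 81.2 and 83.1 and 30.3 and 33.4 CPM. Egr2 was at 10.4 and 8.06, 12 and 13.4 and 22 and 26 CPM, and Myc, a driver of growth, at 78.7 and 89.7, 82.8 and 79 and 136 and 139.6. Both were highest in NAC, with log2 differences of -0.92 and -0.77, and -1.14 for Egr1. Over the 30 EGF ligand, ERK feedback and immediate early genes tested, 11 were higher and 11 lower in PQ, and the median was -0.11, or -0.16 without NAC replicate 1.

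Of the heat shock genes, 2 were in the opposite class with PQ above, against 161 of all 11717 genes tested. Hspb8, a small heat shock protein that holds unfolding proteins in solution, measured 83.4 and 95.6 CPM in controls, 183 and 167 in PQ and 63.7 and 68.8 in NAC, every PQ value being above and every NAC value below control. The inducible chaperone gene Hspa1b was raised by PQ alone, to 11.2 and 12.1 CPM from 4.57 and 5.94, with 5.28 and 6.23 in NAC. Hspa1b counts were fractional in all 6 libraries, so its values are uncertain. Log2 differences between PQ and NAC were 1.40 and 1.02 (edgeR adjusted p 1.9e-08 and 7.0e-04). Of 15 heat shock genes tested, 6 (40.0%, against 16.0% of all genes) were higher in PQ and 0 lower. Their median was 0.21, or 0.12 without NAC replicate 2.

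Of 21 matrix and adhesion genes tested, 3 were in the opposite class and 7 on the NAC side. All 11717 genes tested gave 161 (PQ above) and 1085. Spp1, the secreted phosphoprotein osteopontin, measured 591 and 573 CPM in controls, 1145 and 1227 in PQ and 354 and 361 in NAC. Tnc, the tenascin of neural stem cell niches, was at 535 and 563, 718 and 737 and 329.6 and 357 CPM, and Col6a1, a collagen VI chain, at 21.9 and 23.2, 40.5 and 40.7 and 12.2 and 11.8. All 3 genes were ordered PQ, control, NAC in every library, with log2 differences of 1.73, 1.08 and 1.76. Nefl, the light neurofilament chain, and Nes, the progenitor filament nestin, shared the order, at 119 and 125 CPM in PQ against 32.9 and 51.6 in NAC for Nefl and 720.3 and 715 against 471 and 466 for Nes. In the matrix list 11 genes were higher and 5 lower in PQ, and the median was 0.26, with -0.07 for PQ and -0.37 for NAC against control.

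A few genes stood out by size with no list to hold them. Adssl1, an adenylosuccinate synthase of the purine nucleotide cycle, measured 11.8 and 12.7 CPM in controls, 20.7 and 21.4 in PQ and 2.5 and 2.47 in NAC. Its NAC level was far below the other groups, and PQ exceeded NAC 8.43-fold (log2 3.08, edgeR adjusted p 2.6e-09). Rgs8, which speeds the switching off of G proteins, was at 41.8 and 45.6 CPM in controls, 97.2 and 94.2 in PQ and 16.3 and 19 in NAC, a 5.43-fold difference. Here the rise in PQ (1.13) and the change in NAC (-1.31) were of like size on the log2 scale.

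The mirror class, lower in PQ and higher in NAC than control, included genes of varied function. Grm5, a metabotropic glutamate receptor, measured 195 and 195 CPM in controls, 101 and 112 in PQ and 379 and 361 in NAC. Olfm2, the secreted protein olfactomedin 2, was at 110.3 and 89.1, 61.1 and 53.3 and 217 and 219.7 CPM. In both, the groups were fully ordered, with log2 differences of -1.80 and -1.93 (edgeR adjusted p 4.7e-10 and 1.2e-09). Ankrd34c, at lower levels, measured 0.762 and 1.15 CPM in PQ, 3.94 and 3.53 in controls and 13.9 and 12.8 in NAC. Its fitted change, the largest of the class, was 13.9-fold, a log2 difference of -3.80 that was -2.22 by limma on log2(FPKM + 1). This gene passed the filter, at a mean FPKM of 2.44, largely through its NAC level. Galnt16, which starts O-linked glycans, went from 3.62 and 2.6 CPM in PQ through 6.54 and 9.47 to 20.1 and 19.2, and Slc1a3, the glial glutamate transporter, from 299.6 and 315 through 459.6 and 395 to 528 and 519. Fzd9, a Wnt receptor, and Nrarp, a Notch target that damps Notch signals, had the same order at 4.86 and 4.27 and 2.76 and 4.37 CPM in PQ and 14.1 and 14.7 and 11.4 and 11.7 in NAC.

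Nuclear architecture genes were lower in PQ than in NAC as a list. Of 22 histone and chromatin architecture genes tested, 16 were lower and 3 higher in PQ, with a median log2 difference of -0.46, set by PQ (-0.48 against control) more than by NAC (-0.01). Lmnb1, which encodes the nuclear lamina protein lamin B1, measured 207 and 213 CPM in controls, 103 and 104 in PQ and 298 and 259 in NAC. PQ values were below and NAC values above both controls, and the log2 difference was -1.42 (SE 0.10, edgeR adjusted p 8.3e-09), or -1.42 within the BGISEQ-500 label. Hmgn2, a nucleosome-binding protein, showed the same order at 381 and 319, 222 and 226 and 500.0 and 477 CPM. Lmna, the lamin A and C gene, moved otherwise: 180.5 and 177 CPM in controls, 194 and 185 in PQ and 84.8 and 96.5 in NAC. Its level dropped in NAC alone, so Lmna and Lmnb1 differed between the agents in opposite directions, by 1.06 and -1.42.

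Cell division genes were lower in PQ than in NAC, and DNA replication had the lowest median of the lists examined. Of 36 DNA replication genes tested, 34 were lower and 0 higher in PQ than in NAC, with a median log2 difference of -0.78, and of 30 mitosis genes 28 were lower and 0 higher, with a median of -0.58. Within the BGISEQ-500 label the medians were -0.76 and -0.48. Against control, PQ accounted for -0.60 and -0.62, while NAC stood at 0.17 for replication and 0.00 for mitosis. Mki67, a marker of dividing cells, measured 1053 and 1078 CPM in controls, 451 and 521 in PQ and 1364 and 1188 in NAC. PQ libraries were the low ones, and NAC was not called against control, for a log2 difference of -1.39 (edgeR adjusted p 1.1e-08), or -1.29 within the BGISEQ-500 label. Pole, the leading-strand polymerase subunit, was at 61.9 and 74.3 CPM in controls, 34 and 34.8 in PQ and 79.5 and 80.9 in NAC. Cdc6 and Mcm10, which help load and start the replicative helicase, were among 5 replication genes in the opposite class: Cdc6 at 21.2 and 26.6, 16.5 and 15.2 and 38 and 34.2 CPM and Mcm10 at 32.5 and 37.6, 21.6 and 20.4 and 46.7 and 44.9. Cdc6 and Mcm10 lay above control in NAC, and 78 of all 11717 genes tested were in this opposite class. That class depends on the controls: 5 replication genes were called above control in NAC, but 1 without control replicate 1 or within the BGISEQ-500 label and 11 without control replicate 2, with NAC medians of 0.11, 0.10 and 0.26. Of 13 G1 regulators tested, 1 (7.69%) was higher and 5 (38.5%) lower in PQ, with a median of -0.03.

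Promoters of Mki67 and the spindle motor gene Kif11 are shown with the cell cycle homology region TTTGAA in capitals, on either strand, since the mitosis genes moved together. The windows are chr7:135716330-135716629, minus strand, and chr19:37376132-37376431, plus strand, on GRCm38.p6 (RefSeq).
Mki67: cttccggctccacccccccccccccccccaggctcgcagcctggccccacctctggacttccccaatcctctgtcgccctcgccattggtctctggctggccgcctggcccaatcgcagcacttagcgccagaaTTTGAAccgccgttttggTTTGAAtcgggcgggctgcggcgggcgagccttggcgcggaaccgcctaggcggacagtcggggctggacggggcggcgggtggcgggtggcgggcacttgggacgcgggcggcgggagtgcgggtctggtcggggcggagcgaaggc
Kif11: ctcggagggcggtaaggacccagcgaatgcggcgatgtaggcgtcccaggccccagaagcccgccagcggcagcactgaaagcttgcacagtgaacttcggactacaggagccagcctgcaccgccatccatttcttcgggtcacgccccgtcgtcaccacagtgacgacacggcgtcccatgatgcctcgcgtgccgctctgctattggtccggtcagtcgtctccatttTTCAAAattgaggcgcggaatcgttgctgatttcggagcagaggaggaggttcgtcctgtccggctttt
Of mitosis promoters 20 of 26 (76.9%, from 24 matched genes) hold these letters, against 17.9% of all promoters and 11.8% of those of tested genes.

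**Figure D3:**
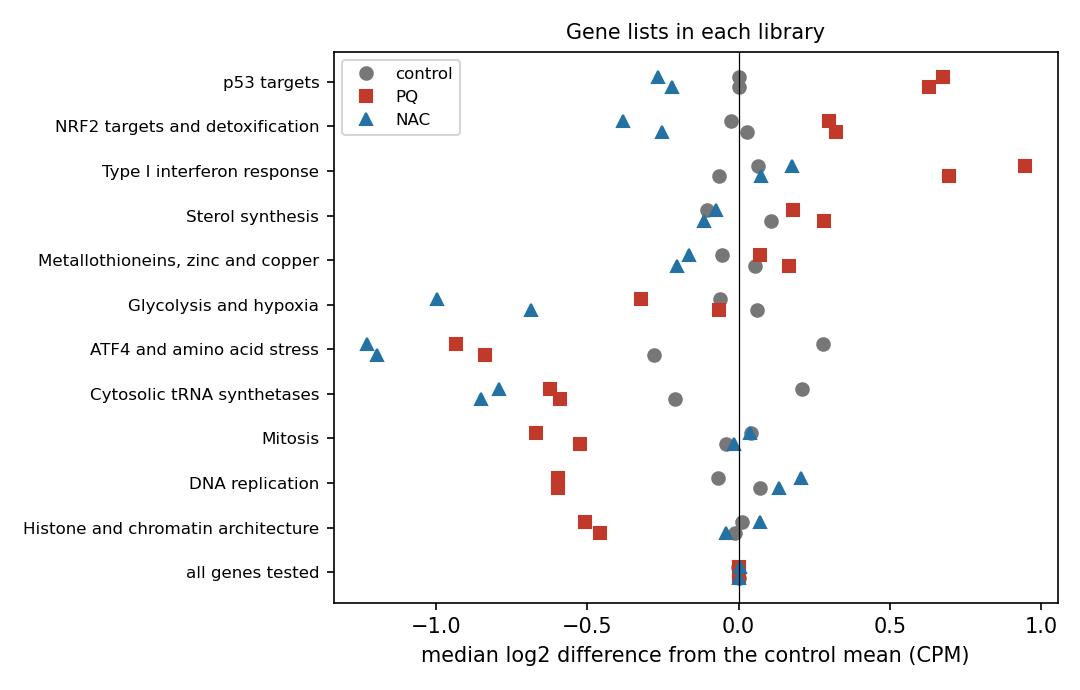
Median log2 difference of each gene list from the mean of the controls, for every library, in CPM. The p53 and NRF2 lists lie to the right of the controls in PQ and to the left in NAC. For p53 targets the medians were 0.68 and 0.63 in PQ and -0.27 and -0.22 in NAC.

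Type I interferon genes, which cells switch on in response to foreign or misplaced nucleic acid, separated PQ from NAC mostly through PQ. Of 47 tested, 37 were higher and 1 lower in PQ than in NAC. On the PQ side were 26, in the same-direction class 6 and in the opposite classes 0. These classes held 1144, 114 and 239 of all 11717 genes tested. PQ raised 39 of the list above control and NAC 11, against 9.76% and 9.01% of all genes tested. For PQ over control the median was 0.84, or 0.72 within the BGISEQ-500 label. The list's median was 0.75 between PQ and NAC, or 0.58 within the BGISEQ-500 label, and in the plot of lists by library PQ lay at 0.95 and 0.70 and NAC at 0.18 and 0.07. Irf7, the factor that amplifies the response, measured 24 and 18.2 CPM in controls, 59.6 and 47 in PQ and 16.9 and 19.1 in NAC. Oasl1, an oligoadenylate synthetase-like protein, was at 18.7 and 13.2, 46.8 and 30.9 and 10.8 and 11.9 CPM. Both PQ libraries were high in each gene and NAC was not called against control. Log2 differences were 1.57 and 1.78 (edgeR adjusted p 3.5e-07 and 1.5e-06). Dhx58, a sensor of viral RNA, differed by a change in NAC instead, at 9.34 and 7.76 CPM in controls, 11.7 and 10.2 in PQ and 2.96 and 3.46 in NAC. Isg20, an interferon-induced exonuclease outside the list, was in the opposite class at 3.32 and 4.53, 7.33 and 6.77 and 1.39 and 1.09 CPM.

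The Ifit1 promoter is shown for the core of the interferon-stimulated response element, GAAANNGAA, in capitals on either strand where matches may overlap. It lies at chr19:34640639-34640938, plus strand, on GRCm38.p6 (RefSeq).
Ifit1: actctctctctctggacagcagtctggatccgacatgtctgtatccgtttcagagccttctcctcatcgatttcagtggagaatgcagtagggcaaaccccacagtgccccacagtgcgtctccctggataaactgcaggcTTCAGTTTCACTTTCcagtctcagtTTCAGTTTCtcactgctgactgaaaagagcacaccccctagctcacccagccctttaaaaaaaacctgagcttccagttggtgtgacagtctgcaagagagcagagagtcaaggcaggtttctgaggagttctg
It holds 3 matches, the list 23 of 44 promoters (52.3%, from 39 matched genes), all promoters 8.56% and those of tested genes 6.76%. Ifit1 itself measured 29.4 and 16.5 CPM in controls, 109 and 76.7 in PQ and 30.6 and 24.4 in NAC, although its counts were fractional in all 6 libraries and it lies across another counted gene, so its values are uncertain.

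Chemokines differed less, and most of their list was above control under both agents. Of 15 chemokine and NF-kB target genes tested, 5 (33.3%) were higher and 1 (6.67%) lower in PQ than in NAC. Their median was 0.19 (0.09 within the BGISEQ-500 label and without PQ replicate 1, 0.29 without PQ replicate 2). Against control, 11 were higher in PQ and 9 in NAC, with 0 lower in either and medians of 0.68 and 0.41. All genes tested gave 9.76% and 9.01% higher. Ccl2, which draws monocytes, measured 86.4 and 67.1 CPM in controls, 251 and 200.4 in PQ and 140.0 and 144 in NAC. It was above control under both agents and further under PQ, by 0.67 on the log2 scale.

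Other genes were moved by PQ while NAC stayed within 0.2 log2 of control. Neat1, the noncoding RNA that builds paraspeckles, measured 407 and 330.2 CPM in controls, 152 and 164 in PQ and 357 and 390.1 in NAC. PQ libraries were the low ones, with a log2 difference of -1.24 (edgeR adjusted p 9.3e-08). In the other direction Aldh1a3, a retinoic acid-forming dehydrogenase, was at 38.3 and 36.7 CPM in PQ against 11 and 15 in controls and 12.2 and 14.3 in NAC. Its log2 difference was 1.5 (edgeR adjusted p 8.0e-07).

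Sterol synthesis genes were higher in PQ by smaller steps. Of 24 sterol synthesis genes tested, 17 were higher in PQ than in NAC and 0 lower, with a median of 0.36, made of 0.20 in PQ and -0.11 in NAC against control. Those 2 parts depended on the controls, at 0.10 and -0.20 without control replicate 1 and 0.33 and 0.01 without control replicate 2. Nsdhl, a late enzyme of cholesterol synthesis, measured 176 and 193 CPM in controls, 246 and 255 in PQ and 156 and 151 in NAC. Each PQ library exceeded each library of the other groups, with a log2 difference of 0.71 (edgeR adjusted p 1.3e-05). Scd1, which desaturates fatty acids, dropped in NAC instead, at 974 and 1149 CPM in controls, 1114 and 1255 in PQ and 648 and 649.5 in NAC. Of 15 fatty acid synthesis and sterol efflux genes tested, 6 (40.0%) were higher, 2 (13.3%) lower and 7 not called, with a median of 0.08. The median was 0.15 without PQ replicate 2 and 0.12 with the labelled protocol as a covariate. Ctsd, the lysosomal protease cathepsin D, was at 476 and 527, 926 and 851 and 544 and 589.6 CPM, raised by PQ alone. Of 23 lysosome and autophagy genes tested, 8 (34.8%) were higher, 1 (4.35%) lower and 14 not called, with a median of 0.07. This median was 0.03 without PQ replicate 1 or within the BGISEQ-500 label, and 0.10 without PQ replicate 2.

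Glycolysis and hypoxia genes differed through NAC. These genes are targets of the hypoxia-inducible factors, whose destruction depends on oxygen-dependent prolyl hydroxylases. Of 26 tested, 21 were higher and 1 lower in PQ than in NAC, and 19 were on the NAC side. Their median was 0.60 between the agents (0.70 within the BGISEQ-500 label), with -0.83 for NAC and -0.18 for PQ against control. Ero1a, an oxidase that forms disulfides in the endoplasmic reticulum, measured 3147 and 2944 CPM in controls, 2202 and 3045 in PQ and 1029 and 1144 in NAC. Both NAC libraries were low, and PQ replicate 1 also lay under the controls, for a log2 difference of 1.27 (SE 0.12, edgeR adjusted p 2.4e-07). Ndrg1, a hypoxia-induced stress protein, was at 332 and 385 CPM in controls, 249 and 331 in PQ and 138 and 154 in NAC, and Egln3, one of the prolyl hydroxylases, at 95.7 and 104, 80.3 and 115 and 40.3 and 46.8. NAC was lowest for both, with log2 differences of 0.99 and 1.16. The exception was Aldoc, the brain aldolase, at 72.3 and 79.7 CPM in controls, 71.5 and 79.5 in PQ and 162 and 161 in NAC, a difference of -1.10. Of 27 respiratory chain genes tested, 7 (25.9%, against 16.0% of all genes) were higher in PQ and 0 lower. Their median was 0.14 (0.09 within the BGISEQ-500 label and without PQ replicate 1).

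**Figure D4:**
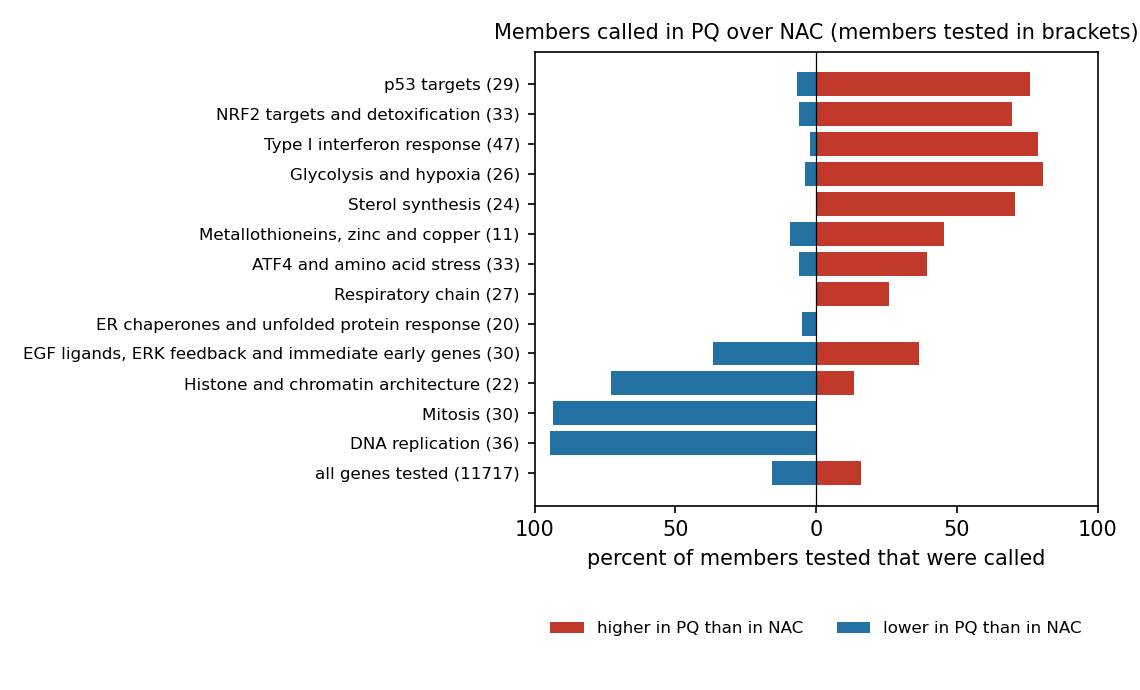
Percent of the tested members of each list that were called higher (right) or lower (left) in PQ than in NAC, with the number tested in brackets. All genes tested give 16.0% and 15.7%, while 34 of 36 DNA replication genes were lower and 21 of 26 glycolysis and hypoxia genes were higher.

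In the plot of called members, lists fall into those with calls nearly all on one side, such as replication or glycolysis, and those called on both, such as the EGF and immediate early genes. Beyond metabolism, some genes were low in NAC alone. Map1b, a microtubule-associated protein of growing axons, measured 372 and 349 CPM in controls, 344 and 373 in PQ and 105 and 119 in NAC. Vim was at 4053 and 4292, 4602 and 4873 and 2463 and 2486 CPM, and Sparc, a secreted matrix regulator, at 927 and 981, 912 and 906 and 471 and 476. NAC libraries were the low ones in all 3 genes, with log2 differences between PQ and NAC of 1.68, 0.94 and 0.94 (edgeR adjusted p 1.2e-09, 1.6e-07 and 1.9e-07). Cd24a, a surface glycoprotein of neuronal precursors, shared the pattern at 274 and 291 CPM in controls, 302 and 307 in PQ and 151 and 142 in NAC.

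Genes raised by NAC alone included glial and Notch genes. Slc15a2, a peptide transporter of astrocytes, measured 27.4 and 33.2 CPM in controls, 30.6 and 28.9 in PQ and 92.1 and 89 in NAC. Rasl11a, a Ras-like small GTPase, was at 9.03 and 9.37, 9.04 and 7.6 and 37.5 and 36.8 CPM. NAC stood clear of the other groups in both, with log2 differences of -1.60 and -2.15 (edgeR adjusted p 1.1e-08 and 1.1e-08). Sox8, a factor of the oligodendrocyte lineage, was at 106 and 99 CPM in controls, 102 and 81.4 in PQ and 202 and 200.5 in NAC. Dll1, a Notch ligand, was at 3.32 and 4.03, 5.14 and 3.64 and 16.2 and 13.6 CPM, and Hey1, a Notch target, at 13.5 and 17.9, 12.9 and 12 and 23.4 and 25.5. The astrocyte genes Aqp4, a water channel, and Gfap, an intermediate filament, were low throughout, at 13.5 and 12.9 CPM for Aqp4 and 11 and 13.7 for Gfap in NAC, against at most 4.27 and 5.94 in the other libraries. Log2 differences were -1.14 for Sox8, -1.76 for Dll1, -1.91 for Aqp4 and -1.28 for Gfap. Aqp4 passed the filter, at a mean FPKM of 1.35, through its NAC level. By limma on log2(FPKM + 1) that of Aqp4 was -1.10. Other astrocyte genes went the other way, among them Aldh1l1, a folate enzyme, at 3.53 and 4.23 CPM in controls, 10.1 and 7.39 in PQ and 3.42 and 2.08 in NAC.

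Lineage lists taken whole were mixed. Of 16 neural stem cell genes tested, 5 were higher and 7 lower in PQ (median -0.32, or -0.21 without PQ replicate 2), and of 11 astrocyte genes 3 were higher and 5 lower (median -0.42, but -0.15 without NAC replicate 1 and 0.27 over members with a mean FPKM of at least 5). Of 9 oligodendrocyte lineage genes tested, 1 was higher and 4 lower (median -0.26, or -0.17 without PQ replicate 2). Of 7 neuronal lineage genes tested, 5 were higher and 1 lower (median 0.90). That median was 1.67 without NAC replicate 2, 1.5 at a mean FPKM of at least 5 and 0.50 by limma on log2(FPKM + 1). The list has 20 members, and those below the filter include Tubb3, whose protein the study used to count neurons. Tubb3 measured 4.25 and 2.32 CPM in controls, 1.24 and 0.833 in PQ and 0.555 and 0.791 in NAC. Dcx and Stmn2, also below the filter, reached at most 0.806 CPM. Of 10 Notch and BMP genes, 2 were higher and 4 lower (median -0.13, but -0.08 without PQ replicate 1 or within the BGISEQ-500 label, and 0.05 at a mean FPKM of at least 5). Of 2 microglial, 1 endothelial and 3 ependymal genes tested, 1, the ependymal Foxj1, was called (0.46, and 0.29 and not called within the BGISEQ-500 label), and of 3 fibroblast genes 2 were lower in PQ. Of 4 sex-linked genes 2 were higher in PQ. Cdkn2a, of the deleted locus, and Cdkn2b, not stated to be deleted, were not called at an edgeR adjusted p under 0.05. The median of these 2 genes was 0.22, or 0.34 within the BGISEQ-500 label.

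ATF4 drives amino acid synthesis and transport when amino acids or cysteine run short. Most of its genes, 27 in PQ and 29 in NAC, were called below control, and 11 were in the same-direction class. Of all 11717 genes tested, 9.45% were below control in PQ and 9.64% in NAC, and 114 were in that class. Of 33 ATF4 and amino acid stress genes tested, 13 were higher in PQ than in NAC, 2 lower and 18 not called, with a median of 0.31 (0.16 with the labelled protocol as a covariate), and the medians against control were -0.91 for PQ and -1.31 for NAC. The controls themselves differed, with list medians of 0.28 in replicate 1 and -0.28 in replicate 2 about their mean. Without control replicate 1 the medians against control were -0.66 and -0.96, and without control replicate 2 they were -1.14 and -1.53. Within the BGISEQ-500 label they were -0.59 and -0.96. Aldh1l2, a mitochondrial folate enzyme, measured 381 and 308 CPM in controls, 217 and 254 in PQ and 118 and 129 in NAC. Ddit4, an inhibitor of growth signalling through mTORC1, was at 164 and 185, 108 and 130.2 and 51.7 and 69.3 CPM. Both genes descended from control through PQ to NAC in every library, with log2 differences of 0.93 and 0.98 between PQ and NAC (edgeR adjusted p 5.2e-06 and 1.3e-05). Chac1, which degrades glutathione, was at 54.7 and 32.3 CPM in controls, 7.81 and 7.18 in PQ and 3.33 and 4.05 in NAC. Its difference of 1.02 (edgeR adjusted p 1.1e-02) was no longer called without NAC replicate 1 (0.89) or without PQ replicate 1 (0.96). Of 20 cytosolic tRNA synthetases tested, 6 were higher and 1 lower in PQ, with a median of 0.26 (0.15 with that covariate) and medians against control of -0.63 for PQ and -0.85 for NAC. Without control replicate 1 these were -0.40 and -0.50, and within the BGISEQ-500 label PQ calls below control fell from 14 to 6.

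Some genes were moved alike by both agents. Slc7a5, a carrier of large neutral amino acids, measured 498 and 282 CPM in controls, 88 and 95.3 in PQ and 105 and 105 in NAC. Shmt2, a mitochondrial serine enzyme, was at 388 and 292, 124 and 128 and 124 and 127 CPM. Treated libraries were below the controls in both genes, and PQ and NAC differed by -0.20 and 0.01 with edgeR adjusted p of 0.41 and 0.97. Tlr2, a receptor of innate immunity, was above control under both, at 2.18 and 2.32 CPM in controls, 10.9 and 7.29 in PQ and 11 and 10.3 in NAC. Pink1, a kinase that marks damaged mitochondria, was also above control under both but further under NAC, at 35.5 and 40.8, 49.7 and 50.2 and 81.5 and 79.9 CPM, a difference of -0.69 (edgeR adjusted p 5.1e-05).

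The study follows genes of the methionine cycle and of FOXO signalling. Lower calls in the first came at about the rate of all genes, and the second had calls both ways. Of 16 methionine cycle genes tested, 0 were higher and 3 (18.8%) lower in PQ, with a median of 0.02. All genes tested gave 16.0% and 15.7%. Ahcy, which clears S-adenosylhomocysteine, was the largest of these at 113 and 114 CPM in controls, 75.4 and 75.5 in PQ and 131 and 122 in NAC, low in PQ alone. Gnmt, the glycine methyltransferase, had 1 to 3 counts in each library, too few for a fold. Of 17 FOXO factors and targets tested, 4 were higher and 4 lower in PQ (23.5% each). Their median was -0.16 (-0.07 with the labelled protocol as a covariate). Foxo3 measured 29.4 and 38 CPM in controls, 41.4 and 41.9 in PQ and 27 and 32 in NAC, so PQ exceeded NAC by 0.50 (edgeR adjusted p 8.3e-03) while neither was called against control. Without NAC replicate 1 the difference was 0.38 and was not called. Of 20 endoplasmic reticulum chaperone and unfolded protein response genes tested, 0 were higher and 1 lower in PQ, with a median of 0.03.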

How the data were processed

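The deposited tables give, for each library, an expected count (estimated reads per gene, made by the authors) and an FPKM scaled by the authors, by NCBI gene identifier. The submitters' processing notes name TopHat2 2.0.11 and Cufflinks 2.1.1 for 2 libraries and HISAT2 2.0.4, Bowtie2 2.2.5 and RSEM for 4. A gene absent from a table was set to 0, and symbols were found for 17199 of 17254 genes (99.7%) in a GRCm38.p6 table. Expected counts were rounded, normalized by TMM and fitted in edgeR 4.0.16 (R 4.3.3) with a mean per group over the 6 libraries, and PQ, NAC and control were contrasted by two-sided quasi-likelihood F tests. Genes had a mean FPKM of at least 1, and p-values were adjusted by Benjamini-Hochberg over the 11717 tested. Classes follow the calls against control. Genes with 3 counts or fewer in every library have no fold. Of the tested genes, 23.2% had a fractional count, which reflects reads shared between genes.

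Genes named were drawn, not all being described, from the largest differences between PQ and NAC, the strongest of each class, and up to 6 called members of each gene list, with Gnmt, Foxo3 and Cdkn2a; Cdkn2b, Ddx3y and the other markers are named from lists whatever their values. Members and lists were chosen with earlier results of these data known, so lists are described by counts and medians without a test. Columns of the study's source data set each PQ library beside a control and a NAC library, and neither they nor the labels say that these were paired, so that set entered only as a block in an alternative fit. The alternatives were DESeq2 1.42.0 size factors and its test, limma 3.58.1 on log2(FPKM + 1) or log2(FPKM + 0.1), no filter or a mean FPKM of at least 5, the 4 PQ and NAC libraries alone, the labelled protocol as a covariate, the BGISEQ-500 libraries alone, the replicate block, a 2-fold threshold, and leaving out each library in turn.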

Additional observations from a re-analysis of the deposited data

How the results depend on the processing

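No alternative called a gene of the PQ and NAC comparison in the opposite direction. Log2 differences of 220 of 231 named genes kept their side of the threshold within the BGISEQ-500 label, 225 by DESeq2, 222 with the replicate block, 215 with the protocol covariate, 205 without NAC replicate 1 or PQ replicate 2, 209 without PQ replicate 1 and 210 without NAC replicate 2. Within the BGISEQ-500 label, which has 1 PQ and 1 control library, PQ over control had 993 calls, the opposite classes 80 (PQ above) and 35 (PQ below), the PQ side 547, the same-direction class 53 and the shared genes 168. Same-direction genes numbered 73 by DESeq2, 72 with the labelled protocol as a covariate and 73 with the replicate block. By limma on log2(FPKM + 1) they numbered 66 and the opposite class with PQ above 101, and on log2(FPKM + 0.1) 67 and 101. For these counts the cause was not tested. A 2-fold threshold left by construction 578 genes between PQ and NAC (379 higher, 199 lower), 210 for PQ and 324 for NAC against control, 120 and 53 in the opposite classes (PQ above and PQ below), 130 on the PQ side, 192 on the NAC side and 10 in the same direction.

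Leaving out 1 library gave 2343 to 4208 genes between PQ and NAC, 1225 to 2127 higher and 1114 to 2081 lower, with 866 to 2206 for PQ over control and 1259 to 2126 for NAC over control. Opposite classes ranged from 87 to 126 (PQ above) and 42 to 70 (PQ below), the PQ side from 433 to 1166, the NAC side from 608 to 1078, the same-direction class from 28 to 158 and the shared genes from 166 to 393. The highest PQ and NAC counts came without a control library, where the fit of the 4 PQ and NAC libraries rests on nearly the same residuals, so these fits are not separate checks.

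Medians of the lists of endoplasmic reticulum chaperones (0.03), G1 regulators (-0.03) and methionine cycle genes (0.02) were too near 0 for their signs to hold in every setting. Other list medians between PQ and NAC that changed sign had at most 11 tested members. Over members with a mean FPKM of at least 5, the astrocyte median was 0.27 and the Notch and BMP median 0.0491, where fewer genes were tested. The ependymal median, 0.35 over 3 genes, was -0.0210 within the BGISEQ-500 label, -0.11 with the covariate, and -0.0208 to 0.605 when 1 library was left out (lowest without PQ replicate 1); the cause was not tested. Counting error limits genes near 3 counts, such as Gnmt, at this depth.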

Other observations

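Further genes had large differences between PQ and NAC. Map2, a microtubule protein of dendrites, measured 204 and 193 CPM in the controls, 180 and 191 in PQ, and 359 and 318 in NAC. It was high in NAC alone, while Map1b was low there. Gpm6a, a neuronal membrane glycoprotein, was at 43.7 and 41.5 CPM in controls, 35.0 and 41.7 in PQ, and 129 and 97.8 in NAC, again high in NAC alone. Rdm1, a protein with a RAD52 motif, was at 7.16 and 6.35 CPM in controls, 0.476 and 1.04 in PQ, and 6.76 and 10.2 in NAC, low in PQ alone.

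Lif, the cytokine leukemia inhibitory factor, was at 15 and 17.8 CPM in controls, 43.7 and 38.6 in PQ, and 18.9 and 20.9 in NAC. PQ libraries lay above all others, and the log2 difference between PQ and NAC was 1.05 (edgeR adjusted p 1.0e-05). Gja1, the gap junction protein connexin 43, was in the opposite class at 409 and 391 CPM in controls, 474 and 519 in PQ, and 301 and 293 in NAC.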
